A study of Mus musculus with 6 samples.

Results

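The miR-125 family was followed in the small RNA of small extracellular vesicles (sEV) from mouse cochlear explants. Its members were all rows of the deposited count table whose name begins with mmu-miR-125a- or mmu-miR-125b-, which gave 5 of the 810 miRNAs in the table, 669 of which carry a miRBase name. The 5 rows were mmu-miR-125a-5p, mmu-miR-125a-3p, mmu-miR-125b-5p, mmu-miR-125b-1-3p and mmu-miR-125b-2-3p, written here without the prefix for mouse. Explants of the cochlear sensory epithelium were taken from ICR mice at postnatal day 3 and kept for 48 h in medium with serum freed of sEV. The 3 Cis-sEV samples came from explants given 50 µM cisplatin, a platinum drug that damages hair cells, and the 3 Ctrl-sEV samples from explants given an equal volume of PBS. Each sample pooled the vesicles of about 80 explants, so a sample is a pool of animals and not a single one. Vesicles from the medium of a mixed tissue carry no record of the cell they left, and fewer releasing cells of a type cannot be told apart from less of a miRNA released per cell.

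miR-125 is the vertebrate form of lin-4, one of the first miRNAs described, and it is abundant in neural and sensory tissue, where it is linked to differentiation and cell survival. A hairpin transcript is cut into a duplex of 5p and 3p arms, usually one arm is kept in Argonaute while the other is degraded, and the kept arm finds its targets through its seed, here bases 2 to 8. In miR-125 the 5p arm is the kept, or guide, arm, and the 3p arm is the scarce passenger.

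The mature sequences are shown because the 5p arms share a seed and the 3p arms do not. They are as deposited, each equal to its RefSeq entry on GRCm38.p6, written 5′ to 3′ with the seed in capitals.
miR-125a-5p: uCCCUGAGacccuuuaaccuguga
miR-125b-5p: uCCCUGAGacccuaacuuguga
miR-125a-3p: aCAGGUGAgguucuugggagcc
miR-125b-1-3p: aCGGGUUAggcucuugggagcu
miR-125b-2-3p: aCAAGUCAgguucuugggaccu
The 5p arms had the same first 13 and last 5 bases. The seed CCCUGAG stood in 4 rows of the table, whereas the seed of each 3p arm stood in 1 row only, its own. Aligned from their first base, miR-125a-3p was alike to each of the miR-125b 3p arms at 18 of 22 positions, and those arms were alike to each other at 17.

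The hairpins of Mir125a and Mir125b-1 are shown because they place the arms beside each other. miR-125b-5p is cut from both miR-125b hairpins, and only their 3p arms tell the loci apart. In each hairpin the 5p and 3p arms are in capitals, and the sequences are as deposited.
Mir125a: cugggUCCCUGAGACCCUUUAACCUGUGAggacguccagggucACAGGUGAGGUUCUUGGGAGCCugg
Mir125b-1: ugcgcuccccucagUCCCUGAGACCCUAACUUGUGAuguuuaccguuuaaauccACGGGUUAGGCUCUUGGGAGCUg
Both are on the + strand of GRCm38. Mir125a lies at chr17:17830812-17830879, inside Spaca6 and over an exon of one of its transcripts, 367 bases from Mirlet7e and 554 bases from Mir99b. Mir125b-1 lies at chr9:41581926-41582002, in introns of the non-coding genes 3110039I08Rik and Gm49317 and in an exon of Gm28119, with Mir100 50421 bases and Mirlet7a-2 45114 bases away. Mir125b-2 lies on chromosome 16, in an intron of the non-coding gene Mir99ahg, with Mir99a and Mirlet7c-1 as its neighbours. The deposited counts give 1 row for miR-125b-5p, so its reads could not be divided between chromosomes 9 and 16.

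The Cis-sEV libraries held 1722359 to 1794175 miRNA reads and the Ctrl-sEV libraries 528952 to 718597. Levels are CPM, the reads of a miRNA in every 1000000 miRNA reads of its library, further scaled by edgeR's TMM factors, and each is relative to the other miRNAs of its library. The level of 3 reads, the most that a count of 0 allows, was 1.42 to 1.59 CPM in Cis-sEV and 4.19 to 7.30 CPM in Ctrl-sEV. Read copies made by PCR were not told apart, so limits and intervals cover counting error only. The Cis-sEV libraries each had 159 to 166 miRNAs with 9 to 31 reads, and the Ctrl-sEV libraries 11 to 20. Of the marker lists, the hair cell miRNAs of the miR-183 cluster (3 of 3 tested, miR-96-5p called higher in Cis-sEV and miR-183-5p lower at the adjusted p alone, log2 fold change -0.49) summed to 50048 to 73377 CPM in Cis-sEV and 55946 to 73189 CPM in Ctrl-sEV, and the vesicles of both groups thus held miRNAs that mark the sensory epithelium. The erythrocyte miRNAs (4 of 5 in the table, 3 tested, miR-451a and miR-486a-5p called lower) summed to 981 to 1218 CPM in Cis-sEV and 1789 to 3928 CPM in Ctrl-sEV. The neuronal miRNAs (4 of 4 tested, 1 called higher, miR-124-3p, which had 0 reads in Ctrl-sEV) summed to 1787 to 2072 CPM and 1317 to 1666 CPM. The mesenchymal miRNAs (5 of 5 tested, 0 called with the fold limit and 1 at the adjusted p alone) summed to 5456 to 8949 CPM in Cis-sEV and 3029 to 5794 CPM in Ctrl-sEV. Over all tested miRNAs 23.5% were called higher and 6.52% lower, and the lists were not tested against these shares. The part of these cell types in the results for miR-125 was not tested.

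The share of the family among all miRNA reads lay higher in every Cis-sEV library, and its make-up was not the same in the groups. Of all miRNA reads, the 5 rows held 1.96%, 1.78% and 2.08% in Cis-sEV and 0.524%, 1.45% and 1.01% in Ctrl-sEV, or 1.94 ± 0.147% and 0.993 ± 0.462% (SD, n = 3). The lowest Cis-sEV share was above the highest Ctrl-sEV share, and the two-sided exact permutation test gave p = 0.1, the smallest that 3 libraries against 3 allow (0.156 after Benjamini-Hochberg adjustment over 14 such comparisons). The mean share was 1.95-fold higher in Cis-sEV. On total miRNA reads the median log2 fold change of all tested miRNAs was itself 0.80. There miR-125b-5p, at 1.24, lay 0.44 above that median, so much of the rise was shared with other miRNAs. Within the family, miR-125b-5p made up 95.9 to 96.1% in Cis-sEV, against 75.6 to 81.8% in Ctrl-sEV. miR-125a-5p made up 3.13 to 3.53% in Cis-sEV, against 13.5 to 19.5% in Ctrl-sEV. The order of the 3 most abundant rows was the same in every library, miR-125b-5p above miR-125a-5p above miR-125b-1-3p, with no overlap between neighbours within either group. Below them miR-125b-2-3p and miR-125a-3p overlapped.

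**Figure D1:**
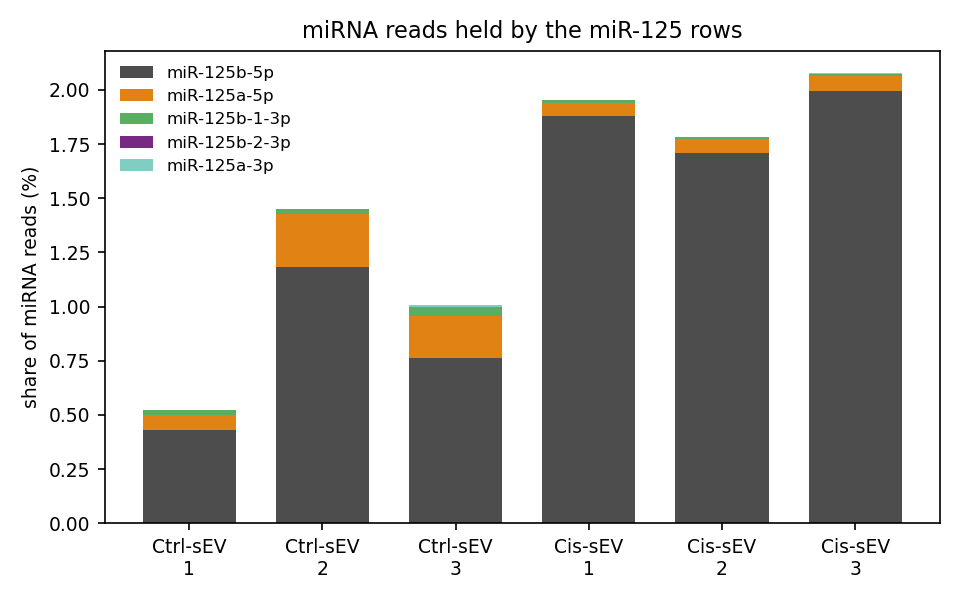
Share of the miRNA reads of each library (vertical axis, percent) held by each miR-125 row, stacked, for the 3 Ctrl-sEV and 3 Cis-sEV libraries. The bars reach 1.78 to 2.08% in Cis-sEV, against 0.524 to 1.45% in Ctrl-sEV, with the miR-125a-5p band thicker in the Ctrl-sEV bars of replicates 2 and 3.

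To ask whether each row differed with cisplatin, edgeR's quasi-likelihood test was run over the 353 miRNAs with enough reads, 4 of the 5 miR-125 rows among them. The limits for a call were those of the study, 0.05 for the adjusted p and 1 for the size of the log2 fold change. By that rule 1 miR-125 row was higher in Cis-sEV (miR-125b-2-3p) and 1 lower (miR-125a-5p), where 30% of all tested miRNAs were called, 23.5% higher and 6.52% lower. The median log2 fold change was -0.38 over the 4 rows and 0.44 over all tested miRNAs. The latter value was 0.22 under upper-quartile factors and 0.80 under total miRNA reads, so log2 fold changes are also given relative to it. Without overlap between the groups, 2 of the 4 rows were higher and 2 lower, against 37.7% and 12.5% of all tested miRNAs. The share of all tested miRNAs that did not overlap in either direction was 50.1%.

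**Figure D2:**
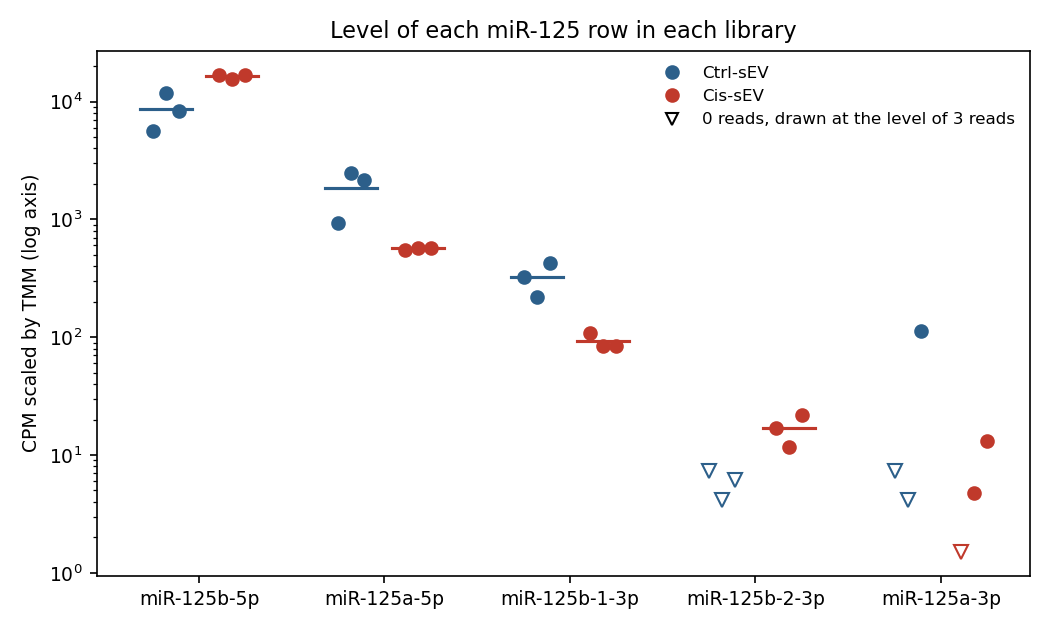
Level of the 5 miR-125 rows in each library (CPM scaled by TMM, log axis), with Ctrl-sEV in blue, Cis-sEV in red, and a line at the mean of groups with reads in every library. The red points lie above the blue for miR-125b-5p and miR-125b-2-3p and below them for miR-125a-5p and miR-125b-1-3p, and open triangles mark libraries with 0 reads, drawn at the level of 3 reads.

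miR-125b-5p, the guide arm made from both miR-125b hairpins, was the most abundant row, at rank 19 of all miRNAs in Cis-sEV and rank 29 in Ctrl-sEV by mean CPM. The reads numbered 33679, 29461 and 35797 in Cis-sEV and 2315, 8492 and 4024 in Ctrl-sEV. Scaled, these were 16922, 15587 and 16904 CPM in Cis-sEV and 5634, 11857 and 8305 CPM in Ctrl-sEV. The groups did not overlap, and the Ctrl-sEV libraries were spread far more widely, with a coefficient of variation of 36.3% against 4.65%. The log2 fold change was 0.94 with a standard error of 0.26 (edgeR, adjusted p = 0.0298), a 1.92-fold higher level that passed the limit on p but not the fold limit. At the adjusted p alone 34.8% of all tested miRNAs passed, 26.3% higher and 8.5% lower. Relative to the median of all tested miRNAs the change was 0.44 to 0.50 on the log2 scale under the 5 scalings run. The sign of this relative change did not hold in other fits. The relative change was -0.47 with limma-voom, -0.60 with DESeq2, -0.55 with the replicate number as a block and -1.85 without a filter. It was 0.46 with at least 10 reads required in 3 libraries, and -0.19 to 0.65 with each library left out. The row's own log2 fold change was positive in all of these fits, at 0.95 with limma-voom, 0.85 with DESeq2 and 0.84 without a filter. The medians subtracted there were 1.42, 1.45 and 2.68, and 1.55 with the block. With DESeq2 and without a filter the reference was not the same set, since 810 miRNAs were tested there, against 353 in the main test. The adjusted p was above 0.05 with DESeq2 size factors (0.0692), TMMwsp (0.110), upper-quartile factors (0.102), DESeq2 (0.381) and limma-voom (0.0629), and with any Cis-sEV library or Ctrl-sEV replicate 3 left out (0.120 to 0.199). The row was called with total miRNA reads (log2 fold change 1.24) and without Ctrl-sEV replicate 2 (1.30).

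miR-125a-5p, the guide arm of the chromosome 17 hairpin and a carrier of the same seed, went the other way. Its reads numbered 1098, 1085 and 1220 in Cis-sEV and 382, 1759 and 1038 in Ctrl-sEV. The read numbers thus overlapped, and the difference between the groups is one of level relative to libraries of unequal depth. Scaled, the levels were 552, 574 and 576 CPM in Cis-sEV, close to one another, and 930, 2456 and 2142 CPM in Ctrl-sEV. The means were 567 ± 13.5 and 1843 ± 806 CPM (SD, n = 3), and each Ctrl-sEV library lay above each Cis-sEV library. Its rank by mean CPM was 96 in Cis-sEV and 52 in Ctrl-sEV. The row fell by 1.70 on the log2 scale with a standard error of 0.38 (edgeR, adjusted p = 0.0140), to a level 3.25-fold lower. Relative to the median of all tested miRNAs this was -2.22 to -2.14 under the 5 scalings. The call was lost, with the direction kept, at an adjusted p of 0.0533 with total miRNA reads, 0.0539 with DESeq2 and 0.0545 with limma-voom. It was also lost without Cis-sEV replicate 2 (0.0522) or 3 (0.0913) and without Ctrl-sEV replicate 2 (0.0724) or 3 (0.0613), over a range of log2 fold changes from -2.09 to -1.41 with each library left out.

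The balance of the guide arms, compared as a ratio within each library and therefore free of any scaling, was chosen after the values had been seen. For every 100 reads of miR-125b-5p there were 3.26, 3.68 and 3.41 reads of miR-125a-5p in Cis-sEV and 16.5, 20.7 and 25.8 in Ctrl-sEV. All Ctrl-sEV libraries were high and all Cis-sEV libraries low, with a wide gap between them. On the log2 scale the ratio differed by -2.58 (p = 0.1 in the two-sided exact permutation test, adjusted 0.156), and by -2.75 to -2.42 with each library left out.

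miR-125b-1-3p, the passenger arm of the chromosome 9 hairpin, was the most abundant 3p arm. It had 217, 159 and 179 reads in Cis-sEV and 133, 156 and 206 in Ctrl-sEV, overlapping read numbers at unequal depth. The levels were 109, 84.1 and 84.5 CPM in Cis-sEV and 324, 218 and 425 CPM in Ctrl-sEV, so that the groups did not overlap. The log2 fold change of -1.80 with a standard error of 0.62 (edgeR, adjusted p = 0.0639) did not pass the test. The row was called with upper-quartile factors (adjusted p = 0.0392), with at least 10 reads required in 3 libraries (0.0490), with DESeq2 (0.0228), and without Ctrl-sEV replicate 1 (0.0491) or 2 (0.0404). Its adjusted p with each library left out reached 0.232.

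miR-125b-2-3p, the passenger arm of the chromosome 16 hairpin, was counted 34, 22 and 46 times in Cis-sEV and 0 times in every Ctrl-sEV library. Its levels of 17.1, 11.6 and 21.7 CPM lay above the level of 3 reads in every Ctrl-sEV library. Taking 3 reads in all of Ctrl-sEV as the limit, its pooled level in Cis-sEV was at least 9.14-fold higher, or at least 5.08-fold without Ctrl-sEV replicate 2. The separate test by edgeR gave an adjusted p of 0.00530. Having 0 reads in Ctrl-sEV, the row could enter that test only through its Cis-sEV reads, which fixed the direction. Of all tested miRNAs, 15% were likewise called higher with 0 reads in Ctrl-sEV. At the depth of the shallowest Ctrl-sEV library the Cis-sEV levels correspond to 10.0, 6.76 and 13.6 reads. The first and last lie in the range of 9 to 31 reads, where the Ctrl-sEV libraries held few miRNAs, and the second below it. The part of that scarcity in the result was not tested. The row did not pass with limma-voom (adjusted p = 0.0866), and without Cis-sEV replicate 1 or 3 it had too few reads to be tested.

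miR-125a-3p, the passenger arm of the chromosome 17 hairpin, was too scarce to be tested. Its reads numbered 0, 9 and 28 in Cis-sEV and 0, 0 and 55 in Ctrl-sEV, or 0, 4.76 and 13.2 CPM and 0, 0 and 114 CPM. A library without reads stood in both groups, the highest level in 1 Ctrl-sEV library, and the groups overlapped.

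The use of the arms was compared as the number of 3p reads for every 100 reads of the 5p arm. In miR-125b, miR-125b-1-3p was scarcer against the shared 5p arm in every Cis-sEV library, whereas miR-125b-2-3p had reads beside it only in Cis-sEV. For miR-125b-1-3p the ratio was 0.644, 0.540 and 0.50 in Cis-sEV and 5.75, 1.84 and 5.12 in Ctrl-sEV. Every Cis-sEV library lay below every Ctrl-sEV library, with a mean log2 difference of -2.76, or 6.77-fold (two-sided exact permutation test with 0.5 reads added to both arms, p = 0.1, adjusted 0.156). The difference was -3.28 to -2.46 with each library left out. For miR-125b-2-3p the ratio was 0.101, 0.0747 and 0.129 in Cis-sEV and 0 in each Ctrl-sEV library. Pooled over the libraries it was 0.103 in Cis-sEV, at least 5.10-fold above the 0.0202 that 0 reads allow over Ctrl-sEV, and at least 2.18-fold without Ctrl-sEV replicate 2. At the Cis-sEV ratio the Ctrl-sEV libraries would have held 2.39, 8.75 and 4.15 reads of it, 15.3 in all. The ratios that 0 reads allow there, 0.130, 0.0353 and 0.0746, reach into the Cis-sEV range in replicate 1 and up to its lower end in replicate 3, and that of replicate 2 alone lies well below it. The 3p arms of miR-125b together, led by miR-125b-1-3p, gave 0.745, 0.614 and 0.629 in Cis-sEV and 5.75, 1.84 and 5.12 in Ctrl-sEV, 5.73-fold lower in Cis-sEV (p = 0.1 in the same exact test, adjusted 0.156).

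Set against each other, a comparison added after the values had been seen, there were 15.7, 13.8 and 25.7 reads of miR-125b-2-3p for every 100 of miR-125b-1-3p in Cis-sEV and 0 in each Ctrl-sEV library. The pooled ratio of 18.4 was at least 30.3-fold above the 0.606 that 0 reads allow over Ctrl-sEV (p = 0.1 in the same exact test, adjusted 0.156), and at least 17.7-fold without Ctrl-sEV replicate 3. With 0 reads in Ctrl-sEV the ratio could only be higher in Cis-sEV, and miR-125b-1-3p, the row below it, was itself at a lower level there. At the Cis-sEV ratio 91.0 reads would have stood in the Ctrl-sEV libraries, 24.4, 28.7 and 37.9 by library. The first and second lie in the range of 9 to 31 reads in which the Ctrl-sEV libraries held few miRNAs. The part of that scarcity in the result was not tested. In the Ctrl-sEV libraries the 3p reads of miR-125b were thus all assigned to the hairpin on chromosome 9, and in Cis-sEV to both hairpins. For miR-125a the ratio of 3p to 5p was 0, 0.829 and 2.30 in Cis-sEV and 0, 0 and 5.30 in Ctrl-sEV, with overlapping groups (log2 difference 0.74, p = 0.9 in the exact test) and a sign that turned when Cis-sEV replicate 3 (-0.44) or Ctrl-sEV replicate 2 (-0.88) was left out.

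**Figure D3:**
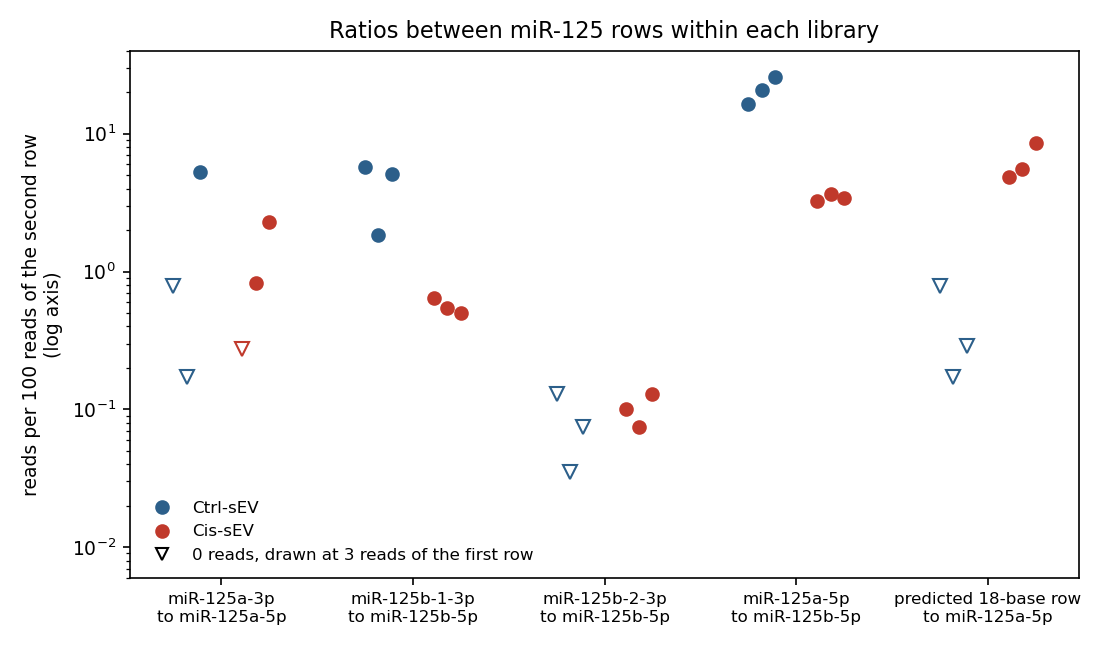
Ratios between rows within each library, as reads of the first row for every 100 reads of the second (log axis), with Ctrl-sEV in blue and Cis-sEV in red. The groups are apart for miR-125b-1-3p to miR-125b-5p and for miR-125a-5p to miR-125b-5p, and open triangles stand where the first row had 0 reads, at the ratio that 3 reads would give.

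A model of arm use fitted across all hairpins (diffSpliceDGE of edgeR) called 5 of 140 arms from 68 hairpins, or 3.57%, and no miR-125b arm was among them. Each called arm had 0 reads in Ctrl-sEV, as miR-125b-2-3p had. Such arms could enter the model only through their Cis-sEV reads, which fixed the direction. Of the 140 arms, 24 had an unadjusted p under 0.05. In that model miR-125b-1-3p differed by -2.69 on the log2 scale against the joined miR-125b hairpins (edgeR, adjusted p = 0.265, 0.0454 unadjusted). There miR-125b-2-3p had an adjusted p of 0.0800 (0.00707 unadjusted), and miR-125b-5p differed by 0.04 (adjusted p = 0.9996). Among 71 pairs of tested arms the ratio of the scarcer to the more abundant arm was higher in all Cis-sEV libraries in 28.2% and lower in 14.1%, and its median log2 difference was 0.80. The ratio of miR-125b-2-3p to miR-125b-5p was among the former and that of miR-125b-1-3p among the latter. In 19 of the 71 pairs, that of miR-125b-2-3p included, the scarcer arm had 0 reads in Ctrl-sEV. Its ratio there was set by the 0.5 reads added and by the reads of the other arm.

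The seed of miR-125 stood in 2 more rows. miR-351-5p, encoded on the X chromosome and commonly placed in the same seed family, shares only its first 8 bases with miR-125b-5p. The other is an 18-base row that the authors predicted from the reads, identical over its whole length to the first 18 bases of miR-125a-5p. The shared stretch is the reason to show them, with the seed again in capitals.
miR-351-5p: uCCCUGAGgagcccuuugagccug
predicted 18-base row: uCCCUGAGacccuuuaac
The hairpin deposited with the predicted row is placed on chromosome 17 and ends in these 18 bases, but it neither equals nor lies in that of Mir125a. Reads cut short from miR-125a-5p would have the same sequence, and the 2 sources cannot be told apart from the counts.

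miR-351-5p had 1537, 1262 and 1251 reads in Cis-sEV and 185, 713 and 241 in Ctrl-sEV, at levels of 772, 668 and 591 CPM and 450, 996 and 497 CPM that overlapped. Its log2 fold change was 0.06 with a standard error of 0.40 (edgeR, adjusted p = 0.936) and took the other sign under several scalings. Against miR-125b-5p it had 4.56, 4.28 and 3.49 reads for every 100 in Cis-sEV and 7.99, 8.40 and 5.99 in Ctrl-sEV, without overlap (p = 0.1 in the exact test, adjusted 0.156). The predicted row was counted 53, 60 and 104 times in Cis-sEV and 0 times in every Ctrl-sEV library. At the limit of 3 reads its pooled level was at least 19.4-fold higher, or at least 10.8-fold without Ctrl-sEV replicate 2. Its adjusted p was 0.00944 (edgeR), in a test that it could enter only through its Cis-sEV reads. As a share of its own reads and those of miR-125a-5p it made up 4.60% (3.47 to 5.98%), 5.24% (4.02 to 6.69%) and 7.85% (6.46 to 9.44%) in the Cis-sEV libraries, with exact 95% Clopper-Pearson intervals. In Ctrl-sEV it had 0 of 382, 0 of 1759 and 0 of 1038 reads, for which the same intervals reach up to 0.961%, 0.209% and 0.355%. No read of the short sequence was thus counted in Ctrl-sEV although the full miR-125a-5p was at a higher level there. At the Cis-sEV ratio 202.7 reads of it would have stood in the Ctrl-sEV libraries. At the depth of the shallowest Ctrl-sEV library its Cis-sEV levels correspond to 15.6, 18.4 and 30.7 reads. These lie in the range of 9 to 31 reads in which the Ctrl-sEV libraries held few miRNAs, and the part of that scarcity in the result was not tested. All 4 rows with the seed together took 1.85 to 2.14% of the reads of a Cis-sEV library and 0.534 to 1.53% of those of a Ctrl-sEV library.

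Each miR-125 hairpin lies beside hairpins of the miR-99/100 and let-7 families, the latter known as inhibitors of growth and pluripotency genes. Of 12 arms of these partners, all in the table, 9 were tested, 1 was called higher in Cis-sEV (miR-100-3p) and 1 lower (let-7c-5p), and 3 arms had 0 reads in Ctrl-sEV. At the adjusted p alone 1 was higher and 3 lower, against 26.3% and 8.5% of all tested miRNAs, and the median log2 fold change of the 9 was -0.44, against 0.44 over all tested. let-7a-5p and let-7c-5p are also made from hairpins elsewhere, so their counts are not those of these loci alone.

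On chromosome 17, the partners of miR-125a moved less than miR-125a-5p did. miR-99b-5p differed by -0.51 on the log2 scale with a standard error of 0.15 (edgeR, adjusted p = 0.0349), short of the fold limit, and let-7e-5p one of -0.44 (adjusted p = 0.0842). For every 100 reads of miR-99b-5p there were 2.07, 2.19 and 2.35 of miR-125a-5p in Cis-sEV and 2.17, 7.20 and 6.49 in Ctrl-sEV. Ctrl-sEV replicate 1 lay among the Cis-sEV libraries and the other Ctrl-sEV libraries lay above them (log2 difference -1.08, two-sided exact permutation p = 0.3, adjusted 0.350). Against let-7e-5p the ratio was 5.47, 6.83 and 4.83 in Cis-sEV and 6.07, 18.7 and 16.6 in Ctrl-sEV, with the same library among those of Cis-sEV (p = 0.2 in the exact test, adjusted 0.280). That miR-125a-5p differed from its neighbours was thus not shown. The remaining arms, let-7e-3p and miR-99b-3p, had log2 fold changes of -1.04 (adjusted p = 0.166) and 1.01 (adjusted p = 0.664).

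On chromosomes 9 and 16, miR-100-5p and miR-99a-5p had log2 fold changes of 0.53 (adjusted p = 0.107) and 0.45 (adjusted p = 0.0710 from edgeR), on the same side as miR-125b-5p, whereas let-7a-5p (-0.75, adjusted p = 0.0167) and let-7c-5p (-1.10, adjusted p = 0.00551) lay below 0. The call of let-7c-5p was lost with total miRNA reads (-0.74) and DESeq2 (adjusted p = 0.0884), and when Cis-sEV replicate 3 (-0.95) or Ctrl-sEV replicate 1 (-0.98) was left out. For every 100 reads of miR-100-5p there were 167, 149 and 186 of miR-125b-5p in Cis-sEV and 73.5, 248 and 103 in Ctrl-sEV. Ctrl-sEV replicate 2 was the highest library of all and the ratios overlapped (p = 0.5 in the exact test). Against miR-99a-5p they were 55.6, 48.9 and 60.6 in Cis-sEV and 21.6, 56.5 and 44.1 in Ctrl-sEV, again overlapping (p = 0.3 in the exact test). The passenger arm miR-100-3p was counted 451, 389 and 388 times in Cis-sEV and 0 times in every Ctrl-sEV library. At the limit of 3 reads its pooled level was at least 110-fold higher, or at least 61.1-fold without Ctrl-sEV replicate 2. Its adjusted p was 0.00993 (edgeR), in a test that it could likewise enter only through its Cis-sEV reads. The call on its level ended when a Cis-sEV library, whichever it was, was left out (adjusted p = 0.0565 to 0.0761). The same row was among the arms called for arm use, again in a test that it could enter only through its Cis-sEV reads. That call too was lost when any Cis-sEV library was left out. Its hairpin shares a locus with Mir125b-1, whose own passenger arm was at a lower level in every Cis-sEV library than in any Ctrl-sEV library.

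**Figure D4:**
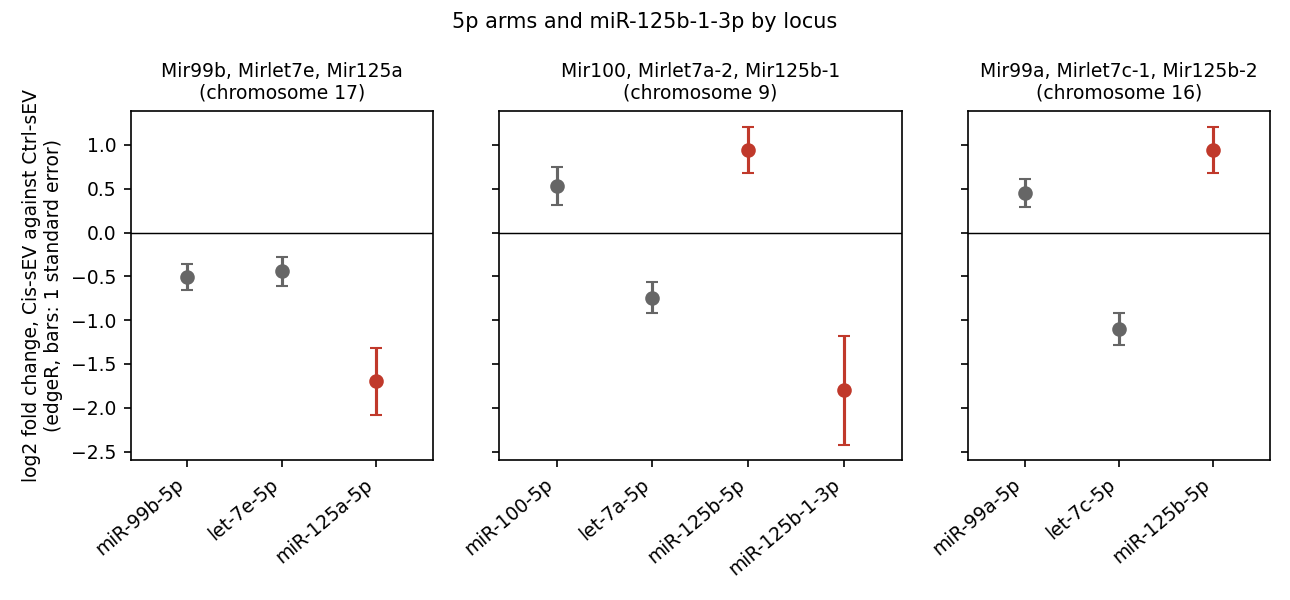
Log2 fold change of Cis-sEV against Ctrl-sEV (edgeR, bars of 1 standard error) for the 5p arms of each miR-125 locus and for miR-125b-1-3p, with miR-125 rows in red and partners in grey. miR-125b-5p, which both miR-125b loci make, is drawn in both panels at 0.94, miR-125a-5p lies at -1.70 below its partners at -0.51 and -0.44, and the let-7 rows lie below 0 in every panel.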

How the data were processed

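The authors selected RNA of miRNA length on a gel, sequenced it on the DNBSEQ platform, aligned reads to GRCm38.p6 (Bowtie2 per the submitters' processing notes) and deposited whole-number counts of reads for each mature miRNA, without normalization. No other column of per-sample values was left out. Counts were tested with edgeR 4.0.16 (quasi-likelihood, TMM, filterByExpr minimums of 10 and 15 reads, Benjamini-Hochberg adjustment over all tested rows, R 4.3.3), since the MA-plot test of the study uses no replicate spread. Arm use was tested with diffSpliceDGE, and ratios with two-sided exact permutation tests (scipy 1.17.1) after adding 0.5 reads. On simulated counts of 353 rows edgeR recovered 200 of 200 rows changed by 3 on the log2 scale, with 0 false calls among the unchanged rows. Among 140 arms diffSpliceDGE recovered 20 of 20 changed by 4, with 1 false call in hairpins without a changed arm. The simulation gave all rows the same spread and raised the scarcest ones, so it does not speak for scarce rows or uneven libraries. The samples are separate pools of vesicles by their labels, and p-values measure only the spread between them, which may be technical. Alternatives were other scalings, filters, DESeq2 1.42.0, limma-voom 3.58.1, a replicate block and each library left out. Members and lists were chosen with earlier results of these data known. Named rows were the members, rows with their seed, neighbouring hairpins, and for 3 members the 3 tested rows most correlated in log2(CPM + 1). The hairpin sequence of Mir125b-2 is not reported here.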

Additional observations from a re-analysis of the deposited data

How the results depend on the processing

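Among fits across all miRNAs, counts of calls and lower bounds, 257 values under the alternatives kept their direction and call, 19 lost and 11 gained a call, 15 moved and 10 reversed. Of the ratios and shares, whose exact p could not pass 0.05 under any alternative, 89 values kept their direction and 2 reversed. The count of called miRNAs was 43 with limma-voom and 53 to 169 with each library left out, with the extremes without Cis-sEV replicate 1 and Ctrl-sEV replicate 3, and the count of arms called by diffSpliceDGE was 1 without a filter and 0 to 11 with each library left out, at 0 without any 1 of the Cis-sEV libraries (12 to 18 at an unadjusted p under 0.05). Same-numbered samples did not deviate together (correlations -0.05, -0.18 and -0.01). A pairing by number was thus not seen, though so few libraries in a group cannot exclude one. With the replicate number as a block 24 miRNAs and 0 arms were called by edgeR (18 arms at an unadjusted p under 0.05), and miR-125a-5p (-1.59, adjusted p = 0.0596), miR-125b-2-3p (adjusted p = 0.161), miR-100-3p (0.103) and the predicted 18-base row (0.161) were not. miR-125a-5p was -1.41 with total miRNA reads, -1.80 with DESeq2 and -1.67 with limma-voom, none called, and -2.09 to -1.41 with each library left out. miR-125b-1-3p was called with upper-quartile factors (-2.02), at least 10 reads in 3 libraries (-1.89) and DESeq2 (-1.86), and was -2.07 to -1.42 with each library left out. miR-125b-2-3p had an adjusted p of 0.0866 with limma-voom and 0.04 without a filter. Its adjusted p was 0.00806 to 0.0353 without Cis-sEV replicate 2 or any Ctrl-sEV library, and without Cis-sEV replicate 1 or 3 it was not tested. miR-125b-5p was called at 1.24 with total miRNA reads and at 0.94 with no fold limit, and was 0.64 to 1.30 with each library left out. miR-351-5p took the other sign with DESeq2 size factors (-0.021), TMMwsp (-0.021), upper-quartile factors (-0.18), no filter (-0.048), at least 10 reads in 3 libraries (-0.073) and DESeq2 (-0.022), and ran from -0.22 to 0.59 with a library left out. The log2 ratio of miR-125a-3p to miR-125a-5p ran from -0.88 to 2.89. The cause of these moves was not tested. Depth limits the scarce arms, since 0 reads in a Ctrl-sEV library still allow up to 4.19 to 7.30 CPM scaled by TMM.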

Other observations

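The tested rows most like miR-125a-5p over the 6 libraries, by Pearson correlation of log2(CPM scaled by TMM + 1) and given as a description over points that share the group difference, were miR-409-3p (r = 0.957), a row predicted from the reads (r = 0.952) and miR-191-3p (r = 0.924). Those most like miR-125b-5p were miR-708-5p (r = 0.994), miR-20a-5p (r = 0.973) and miR-128-3p (r = 0.958). miR-20a-5p had 0, 58 and 3 reads in Ctrl-sEV, and miR-128-3p had 1, 265 and 9, so that both were highest in Ctrl-sEV replicate 2, as miR-125b-5p was. Those most like miR-125b-2-3p were miR-326-3p, miR-206-3p and miR-1843b-5p (r of 0.9995 to 0.9999), each with 0 reads in every Ctrl-sEV library.

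A predicted 19-base row placed on chromosome 7 differs from the first 19 bases of miR-125b-5p by G6C and G19U, counted from 1 at the 5′ end with the base of miR-125b-5p first. The first of these lies in the seed.
predicted 19-base row: uCCCUCAGacccuaacuuu
Its reads numbered 37, 140 and 258 in Cis-sEV and 0, 3 and 3 in Ctrl-sEV, and its log2 fold change of 4.31 with a standard error of 1.61 (edgeR, adjusted p = 0.0807) did not pass the test. DESeq2 called it (adjusted p = 0.00967). Every Cis-sEV library lay above every Ctrl-sEV library, and the Cis-sEV libraries themselves ranged from 18.6 to 122 CPM.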
